A study of Mus musculus with 16 samples.

Results

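The Sprouty and Spred genes were followed through the induction of ERK signalling and its block. The 7 genes of the family were taken by symbol: Spry1, Spry2, Spry3 and Spry4, which encode Sprouty proteins, and Spred1, Spred2 and Spred3, which encode Sprouty-related proteins with an EVH1 domain. Each of the 7 had a row among the 52636 genes counted. Of these, 6 passed the filter on low counts and were tested among 12742 genes. Spry3 had 0 counts in every library and was not tested.

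Fibroblast growth factor receptors pass their signal to Ras, then through RAF kinases and MEK to ERK. Sprouty and Spred proteins are inhibitors of this route, and several of their genes are themselves switched on by ERK, which makes a negative feedback loop. Sprouty proteins bind adaptors and enzymes such as Grb2 and Cbl. Spred proteins bring neurofibromin, the product of Nf1 and an inactivator of Ras, to the cell membrane. In pluripotent mouse cells the balance of this signal bears on whether cells self-renew or start to differentiate.

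RNA was sequenced from a mouse line in the cell state the labels call RSC, which carries a kinase construct upstream of MEK that 4-hydroxytamoxifen (4OHT) switches on. Cells grew in N2B27 medium with IWP2 (2 µM), LIF and the MEK inhibitor PD03 (1 µM). For 48 h before an experiment, the FGF receptor inhibitor PD17 (250 nM) stood in place of PD03, and this holds for every group, uninduced cells included. The group 0h had received no 4OHT, the groups 2h and 4h had received 250 nM 4OHT for 2 h and 4 h, and the group rev had received 4OHT for 4 h and then MEK inhibitor for 2 h. The dose of inhibitor in rev is not stated in the sources used here, and no group was cultured for the same total time without it, so rev against 4h also carries 2 h of further culture. Each group held 4 libraries, 2 from clone 4 and 2 from clone 8. The labels do not say whether the libraries of a clone came from separate cultures, so the spread between them may be technical. P-values of the fits of single clones, and of clone differences and clone levels, rest on that spread. In the fit of both clones, with terms for group and clone, the spread also holds differences between the clones in their response.

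The start of Spry2 and Spred1 is shown because both genes passed the test at 2h and at 4h in each clone, and that of Spred3 because it held the only match to a searched motif. The 250 bases before the RefSeq start (build GRCm38.p6) are given 5′ to 3′ on the strand of the gene. They lie at chr14:105896820-105897069 on the minus strand for Spry2, at chr2:117120821-117121070 on the plus strand for Spred1 and at chr7:29168648-29168897 on the minus strand for Spred3. Lower case marks bases with no match, and capitals mark the match in Spred3.
Spry2: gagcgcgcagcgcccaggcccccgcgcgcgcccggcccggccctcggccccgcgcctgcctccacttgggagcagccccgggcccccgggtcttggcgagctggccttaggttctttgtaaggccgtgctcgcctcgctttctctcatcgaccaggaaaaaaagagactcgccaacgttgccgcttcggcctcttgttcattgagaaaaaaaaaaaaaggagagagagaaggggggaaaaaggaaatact
Spred1: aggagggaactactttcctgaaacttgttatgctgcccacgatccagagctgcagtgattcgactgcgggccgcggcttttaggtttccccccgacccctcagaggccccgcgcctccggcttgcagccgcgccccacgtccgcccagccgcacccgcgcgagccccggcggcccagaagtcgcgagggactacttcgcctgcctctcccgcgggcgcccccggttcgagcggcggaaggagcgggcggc
Spred3: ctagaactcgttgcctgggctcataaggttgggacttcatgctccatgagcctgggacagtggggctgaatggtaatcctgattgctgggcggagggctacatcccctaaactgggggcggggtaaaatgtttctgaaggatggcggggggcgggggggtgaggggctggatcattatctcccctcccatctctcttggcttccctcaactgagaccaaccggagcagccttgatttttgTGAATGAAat

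RefSeq windows were found for 5 of the 7 genes: Spry1, Spry2, Spred1, Spred2 and Spred3. Both strands were searched for GCGNGGGCG (EGR factors), TGANTCA (AP-1), CCGGAAGT (ETS factors), TGAATGNA (CIC, the repressor Capicua), TGACGTCA (CRE) and the CArG box (SRF), any overlap allowed. Spred3 held 1 match, TGAATGAA for CIC, at bases -10 to -3 from its RefSeq start. This window lies inside the annotated span of Spred3 (29158829 to 29170411, minus strand), so that start is not the annotated 5′ end of the gene. The CIC motif occurs in 3.20% of all 32851 windows of this length, the EGR motif in 4.70%, AP-1 in 6.75%, ETS in 2.88%, CRE in 1.55% and CArG in 1.47%. The other 4 windows held none of the 6 motifs in these letters. The windows differed in CpG number, with 31 CpG in Spred1, 23 in Spry2, 23 in Spry1, 12 in Spred2 and 6 in Spred3, where the median window has 6.

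Library totals ran from 4313599 to 10444126 counts (median 8027686). A set of 8 features took 46.7% to 78.9% of each library, and 1301790 to 5457796 counts lay outside them. The 78.9% and the 1301790 counts both belonged to library 1 of clone 8 in rev, and no other library exceeded 64.9%. Levels are given as CPM, the counts scaled by TMM to a common library size over the tested genes. In these units 3 counts, taken as the detection floor, amounted to 0.21 to 0.908 CPM, which covers counting error alone. The first principal component, with 51% of the variance of the 500 most variable genes, separated the clones. On the third, with 8.57%, all 0h and 4h libraries lay on one side and all 2h and rev libraries on the other, so this split and the group cannot be told apart when a library set of one side is compared with one of the other. Only 4h against 0h and rev against 2h stay on one side of it. All 8 pluripotency markers (Pou5f1, Sox2, Nanog and others) were detected, with summed levels of 956 to 1910 CPM per library. Summed neural markers ran from 4.59 to 8.03 CPM at 0h and from 6.74 to 24.0 CPM at 4h, mesoderm markers from 0.599 to 2.70 and from 1.91 to 4.32 CPM, primed markers from 28.2 to 70.5 and from 31.8 to 93.1 CPM. Endoderm markers stayed within 1.81 to 4.31 CPM and fibroblast markers within 0.613 to 3.60 CPM, with Lum at 0 at 0h and 2h, and trophoblast markers ran from 30.4 to 70.1 CPM. The part of these cell type markers in the changes of the Sprouty and Spred genes was not tested, and in bulk RNA fewer cells of a type and less RNA per cell cannot be told apart.

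Among the Sprouty genes, Spry4 made by far the largest move: it was low in uninduced cells, at 0.999 to 3.45 CPM, stood at 54.4 to 238 CPM after induction and was back at 0.908 to 2.26 CPM after MEK inhibitor. Spry2 started higher and rose 2.74-fold at 2h and 3.32-fold at 4h. Spry1 stayed at a few CPM, and Spry3 was not detected. Spry4 (ENSMUSG00000024427; GRCm38 chromosome 18, 38586247 to 38601415, minus strand) encodes a Sprouty protein whose expression is a widely used readout of FGF and ERK signalling. At 0h it measured 0.999 and 1.67 CPM in the clone 4 libraries and 1.97 and 3.45 CPM in the clone 8 libraries. At 2h the values were 120 and 141 CPM in clone 4 and 82.4 and 78.9 CPM in clone 8. The 2h range lay wholly above the 0h range, with every clone 4 library above every clone 8 library. At 4h clone 4 had gone on to 218 and 238 CPM, while clone 8 stood at 55 and 54.4 CPM. In rev the values were 2.26 and 1.46 CPM in clone 4 and 0.908 and 1.41 CPM in clone 8, the lowest resting on 3 counts. The rev libraries therefore overlapped the 0h libraries and lay far below every induced library.

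In the fit of both clones, the log2 change of Spry4 was 5.60 at 2h against 0h (SE 0.346, 48.5-fold, edgeR adjusted p 4.42e-09). At 4h against 0h it was 5.78 (SE 0.349, 55.1-fold, edgeR adjusted p 5.48e-09). It ranked 5 of 12742 genes by size of rise in both comparisons. In rev against 4h, Spry4 fell by 6.41 on the log2 scale (SE 0.369, an 85.0-fold difference, edgeR adjusted p 2.35e-09), and it ranked 1 of 12742 by size of fall. Rev against 0h gave -0.63 (SE 0.598, 95% interval -1.87 to 0.62, edgeR adjusted p 0.553). The interval allows anything from a return to well under the starting level to a level moderately above it.

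Spry2 (ENSMUSG00000022114; chromosome 14, 105891947 to 105896819, minus strand), a widely expressed Sprouty that binds Cbl, was present before induction. Its 0h libraries measured 12.4 and 14.1 CPM in clone 4 and 12.5 and 12.4 CPM in clone 8. At 2h they measured 45.4 and 48.7 CPM in clone 4 and 26.8 and 27.1 CPM in clone 8. The clones were thus level at the start and did not overlap after 2 h. At 4h the values were 63.1 and 54.4 CPM in clone 4 and 33.1 and 29.6 CPM in clone 8. In rev they were 11.6 and 17.3 CPM in clone 4 and 8.78 and 12.5 CPM in clone 8, a range that contains the 0h values. Spry2 rose by 1.45 on the log2 scale at 2h (SE 0.155, edgeR adjusted p 5.61e-06) and by 1.73 at 4h (SE 0.156, edgeR adjusted p 6.37e-07). Between 4h and rev it fell by 1.79 (SE 0.157, edgeR adjusted p 8.17e-07). Rev against 0h gave -0.056 (95% interval -0.42 to 0.30, edgeR adjusted p 0.879).

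Spry1 (ENSMUSG00000037211; chromosome 3, 37639947 to 37644598, plus strand), known for its role in kidney and ureter development, was measured from few reads, with 6 to 49 counts per library. At 0h it stood at 3.60 and 1.36 CPM in clone 4 and 3.32 and 4.89 CPM in clone 8, and at 2h all 4 libraries lay between 2.98 and 3.65 CPM. At 4h it measured 5.07 and 6.10 CPM in clone 4 and 3.12 and 5.21 CPM in clone 8. All 4 rev libraries, at 1.75 to 2.17 CPM, lay below all 4h libraries. The log2 change was 0.023 at 2h (edgeR adjusted p 0.968) and 0.52 at 4h (SE 0.274, edgeR adjusted p 0.222). Against 4h, Spry1 in rev fell by 1.27 (SE 0.296, edgeR adjusted p 0.00936), a call lost in clone 8 alone (-0.94, edgeR adjusted p 0.145). Rev against 0h gave -0.75 (edgeR adjusted p 0.128), and -1.03 without library 2 of clone 4 at 0h, the 1.36 CPM library, where edgeR's adjusted p was 0.0241. Of the exon length of Spry1, 24.4% overlaps Gm42922 on the opposite strand, and since the strand setting of the counting is not given in the sources used here, its counts are uncertain.

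Spry3 (ENSMUSG00000061654) lies in the annotation on the unplaced scaffold GL456233.1, 101352 to 106395, minus strand. It had 0 counts in all 16 libraries, which allows up to 0.21 to 0.908 CPM per library. Among the 5 counted genes of that scaffold, 2 had any count, and the higher of them totalled 616 counts over the libraries.

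**Figure D1:**
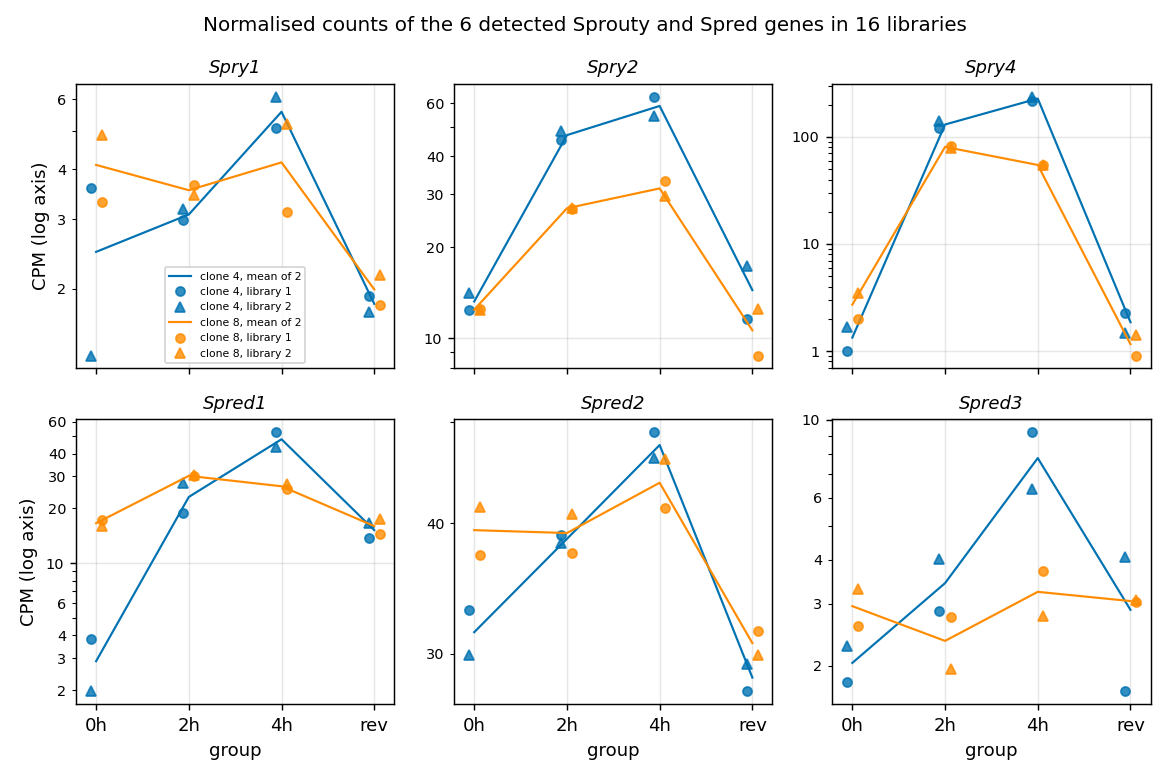
Normalised counts (CPM, log axis, a different range in each panel) of the 6 detected genes in 16 libraries by group; circles and triangles are library 1 and library 2 of a clone, and lines join the means of 2 libraries. Spry4 goes from 0.999 to 3.45 CPM at 0h to 54.4 to 238 CPM at 4h and back to 0.908 to 2.26 CPM in rev, while Spred1 starts apart in the clones and meets in rev.

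Among the Spred genes, Spred1 rose and fell in the test, but from a different start in each clone. Spred2, the most abundant member before induction, changed little, and Spred3 stayed low. Spred1 (ENSMUSG00000027351; chromosome 2, 117121374 to 117182279, plus strand) encodes the Spred protein whose loss in people causes Legius syndrome. Its 0h libraries measured 3.80 and 1.97 CPM in clone 4 and 17.2 and 16 CPM in clone 8. At 2h it stood at 18.8 and 27.5 CPM in clone 4 and at 30.1 and 30.4 CPM in clone 8. At 4h the order was turned, with 52.5 and 43.7 CPM in clone 4 and 25.7 and 27.3 CPM in clone 8. In rev the clones overlapped, at 13.7 and 16.7 CPM in clone 4 and 14.5 and 17.5 CPM in clone 8. For clone 8 this was the 0h level, whereas both clone 4 libraries stayed above both of their 0h libraries.

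Over both clones Spred1 rose by 1.41 on the log2 scale at 2h (SE 0.363, edgeR adjusted p 0.0121) and by 1.91 at 4h (SE 0.372, edgeR adjusted p 0.00208). From 4h to rev it fell by 1.25 (SE 0.349, edgeR adjusted p 0.029). This last call is close to the threshold: leaving out either clone 4 library of 4h or any of the 4 rev libraries took edgeR's adjusted p to between 0.0568 and 0.1305, with values of -0.92 to -1.34. DESeq2 did not call it (-1.33, adjusted p 0.075). Fitted alone, each clone called this fall. It was -1.66 in clone 4 (SE 0.17, edgeR adjusted p 4.99e-08) and -0.68 in clone 8 (SE 0.132, edgeR adjusted p 0.00252). Rev against 0h gave 0.67 over both clones (edgeR adjusted p 0.295). In clone 4 alone Spred1 was still 2.45 above 0h (SE 0.278, edgeR adjusted p 1.42e-06), and in clone 8 alone the value was -0.015 (SE 0.141, edgeR adjusted p 0.983).

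Spred2 (ENSMUSG00000045671; chromosome 11, 19924375 to 20024026, plus strand), which like Spred1 restrains Ras activation, was at 33.0 and 29.9 CPM in clone 4 and 37.3 and 41.5 CPM in clone 8 at 0h. At 2h all 4 libraries lay between 37.5 and 40.8 CPM. At 4h they measured 48.9 and 46.2 CPM in clone 4 and 41.4 and 46.1 CPM in clone 8, and only the lowest of these overlapped the 0h range. In rev all 4 libraries, at 27.6 to 31.5 CPM, were below all 2h and 4h libraries. Spred2 gave 0.13 at 2h against 0h (edgeR adjusted p 0.348), rose by 0.36 at 4h (SE 0.0947, edgeR adjusted p 0.0147) and fell by 0.63 in rev against 4h (SE 0.0961, edgeR adjusted p 0.000319). The 4h call was lost in clone 8 alone (0.15, edgeR adjusted p 0.432) and with library totals (0.33, edgeR adjusted p 0.698). It was also lost without 0h clone 4 library 1, 0h clone 4 library 2 or 4h clone 4 library 1, with edgeR adjusted p of 0.0519, 0.0554 and 0.0671.

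Spred3 (ENSMUSG00000037239; chromosome 7, 29158829 to 29170411, minus strand), whose protein lacks the working Kit-binding domain of Spred1 and Spred2, held 9 to 69 counts per library. At 0h it measured 1.80 and 2.27 CPM in clone 4 and 2.59 and 3.31 CPM in clone 8. At 4h clone 4 reached 9.20 and 6.35 CPM, while clone 8 stood at 3.72 and 2.76 CPM, so the groups overlapped through clone 8 alone. In rev the values were 1.69 and 4.07 CPM in clone 4 and 3.03 and 3.07 CPM in clone 8. Spred3 passed the test at 4h against 0h, where it rose by log2 1.03 (SE 0.329, edgeR adjusted p 0.0432). The call was lost in 13 of 27 alternatives, and without 4h clone 4 library 1 the value was 0.69 (edgeR adjusted p 0.214). At 2h against 0h it gave 0.12 (edgeR adjusted p 0.847) and in rev against 4h -0.87 (SE 0.321, edgeR adjusted p 0.091). Of its exon length, 3.25% overlaps Ggn on the opposite strand.

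Counted over the 6 tested members, 3 rose at 2h against 0h (Spry2, Spry4 and Spred1) and none fell, where 9.49% of all genes rose and 7.48% fell. At 4h against 0h, 5 rose and none fell, where 7.35% of all genes rose and 5.56% fell. At 4h against 2h, edgeR called 0 members in a comparison that called 12.1% of all genes; DESeq2 also called 0, and 2 members, Spred2 and Spred3, were higher at an unadjusted p under 0.05. From 4h to rev, 5 fell and none rose, where 5.10% of all genes fell and 4.50% rose, and Spred3 was the member that missed the threshold. In rev against 0h, edgeR called 0 members where it called 10.5% of all genes; DESeq2 also called 0, and 2 members, Spry1 and Spred2, were lower at an unadjusted p under 0.05. In rev against 2h, Spry2, Spry4 and Spred2 fell, with log2 changes of -1.51, -6.23 and -0.40 (edgeR adjusted p 7.40e-06, 2.03e-09 and 0.0324), where 1.01% of all genes fell and 0.769% rose. The Spred2 call there was lost in 12 of 27 alternatives, among them library totals (-0.75, edgeR adjusted p 0.0956). The median change of the 6 members was 0.77 at 2h, 1.38 at 4h and -1.26 in rev against 4h, beside medians of 0.0033, -0.0064 and 0.0026 over all genes. In the same order the medians were 1.26, 2.04 and -1.61 in clone 4 alone and 0.43, 0.43 and -0.81 in clone 8 alone. Comparisons that share a group share its libraries. No called change of a member took the opposite sign with DESeq2 size factors, with library totals or without the 8 abundant features.

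**Figure D2:**
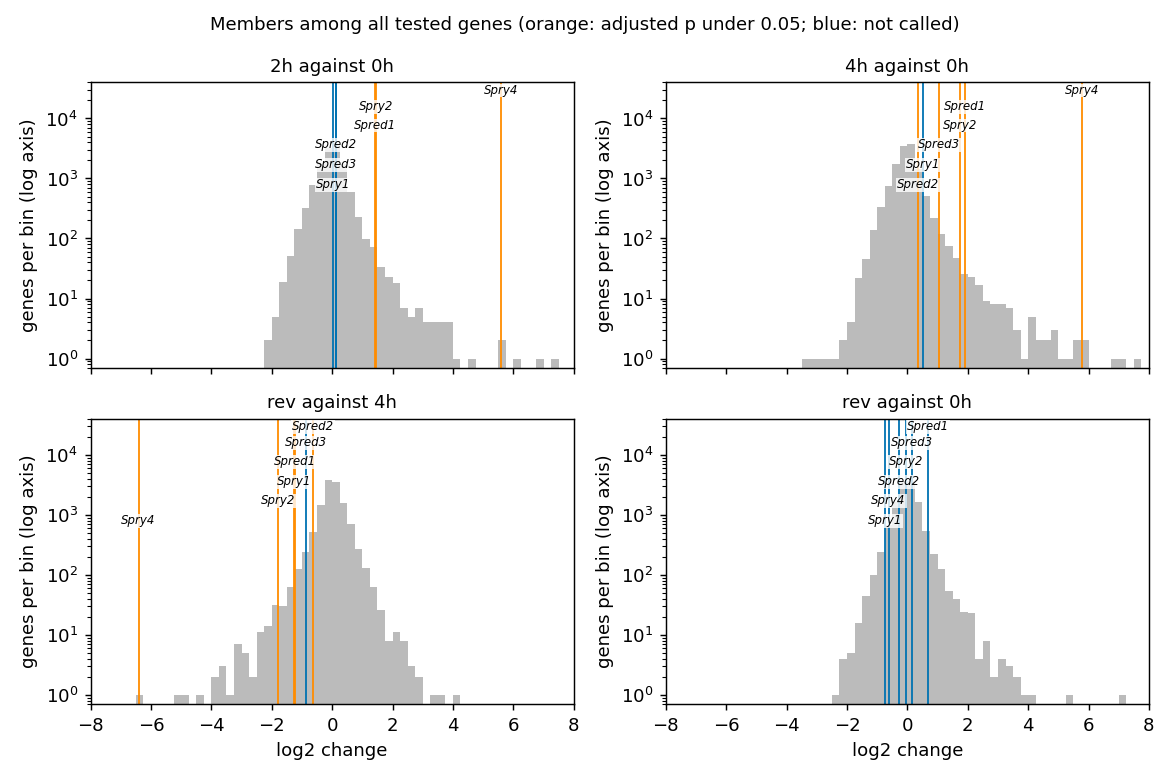
Histograms of the log2 change of all 12742 tested genes (bars, log axis of genes per bin) with a vertical line at each of the 6 members; orange lines passed an adjusted p of 0.05 and blue lines did not. Spry4 lies in the far right tail at 2h and 4h (5.60 and 5.78) and is the leftmost gene in rev against 4h (-6.41). In rev against 0h all 6 members lie between -0.75 and 0.67, and none was called.

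The clones answered the same induction to different degrees, and clone 8 gave the smaller rise wherever a difference in a rise from 0h was called. The clone difference is the log2 change in clone 8 minus that in clone 4, tested as an interaction. At 2h against 0h it passed for 3 members, in a comparison that called 7.94% of all genes. The values were -0.70 for Spry2 (SE 0.224, edgeR adjusted p 0.0479), -1.60 for Spry4 (SE 0.407, edgeR adjusted p 0.0115) and -2.19 for Spred1 (SE 0.308, edgeR adjusted p 2.24e-05). At 4h against 0h it passed for 4 members, where 5.72% of all genes passed. Spry4 differed by -2.97 (SE 0.402, edgeR adjusted p 5.70e-06) and Spred1 by -3.47 (SE 0.297, edgeR adjusted p 7.50e-10). Spry2 differed by -0.81 (SE 0.227, edgeR adjusted p 0.0277) and Spred3 by -1.77 (SE 0.512, edgeR adjusted p 0.0338). Library totals in place of TMM moved the median of all genes by 0.583 at 2h and 0.317 at 4h. The calls of Spry2 and Spry4 at 2h were then lost, at -0.12 and -1.04 (edgeR adjusted p 0.845 and 0.216), as were those of Spry2 and Spred3 at 4h, at -0.48 and -1.43 (edgeR adjusted p 0.661 and 0.278). DESeq2 did not call Spry2 at 2h or 4h or Spred3 at 4h (adjusted p 0.134, 0.0654 and 0.106). For Spry2 the call was lost without any of 9 of the 16 libraries at 2h (-0.62 to -0.79) and without any of 6 at 4h (-0.68 to -0.90), and for Spred3 without any of 6 at 4h (-1.42 to -1.96). For Spry4 at 2h it was lost without 0h clone 4 library 1 (-1.33, edgeR adjusted p 0.0706) or 0h clone 8 library 2 (-1.20, edgeR adjusted p 0.151).

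Between 2h and 4h, Spry4 moved in opposite directions in the clones. Fitted alone, clone 4 gained 0.81 (SE 0.111, edgeR adjusted p 6.07e-06) and clone 8 fell by 0.56 (SE 0.0953, edgeR adjusted p 0.000712). The difference of -1.37 passed the test (SE 0.152, edgeR adjusted p 7.43e-08), which called 14.8% of all genes. Spred1 gained 1.07 in clone 4 alone (edgeR adjusted p 2.85e-05) and gave -0.19 in clone 8 alone (edgeR adjusted p 0.280), a difference of -1.27 (SE 0.205, edgeR adjusted p 4.20e-05). Spry2 gave like values of 0.33 and 0.23, with a difference of -0.11 (95% interval -0.48 to 0.26). In the fit of both clones these changes of Spry4 and Spred1 came to 0.18 and 0.50, and neither was called.

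The falls of Spry4 and Spred1 from 4h to rev were smaller in clone 8, by 1.52 (SE 0.499, edgeR adjusted p 0.0387) and 0.99 (SE 0.233, edgeR adjusted p 0.0036), where 13.2% of all genes differed. Clone 8 fell from lower 4h means, 54.7 against 228 CPM in clone 4 for Spry4 and 26.5 against 48.1 CPM for Spred1. In rev Spry4 averaged 1.16 CPM in clone 8 and 1.86 CPM in clone 4, and Spred1 16 and 15.2 CPM. Library totals moved the median of all genes by -0.651 and ended both calls, at 0.90 for Spry4 and 0.33 for Spred1 (edgeR adjusted p 0.274 and 0.529). The call for Spry4 was lost without any of the 4h libraries, rev clone 4 library 2 or rev clone 8 library 2, with a value of 1.06 (edgeR adjusted p 0.567) without rev clone 8 library 2. The call for Spred1 was lost without 4h clone 4 library 1 (0.84, edgeR adjusted p 0.051) or rev clone 8 library 2 (0.82, edgeR adjusted p 0.107). In rev against 0h, Spred1 differed by -2.47 (SE 0.326, edgeR adjusted p 1.12e-05), where 5.25% of all genes differed.

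Fitted alone, clone 4 called more members than clone 8 at 4h. At 2h against 0h each clone called 3 members (Spry2, Spry4 and Spred1), where 20.7% of all genes were called in clone 4 and 17.8% in clone 8. Clone 4 at 4h against 0h called all 6 tested members, each higher, with 19.0% of all genes called. Among them was Spry1, at a log2 rise of 1.2 (SE 0.376, edgeR adjusted p 0.025), which was not called over both clones. Clone 8 called 3 at 4h, with 6.28% of all genes called. At 4h against 2h clone 4 called 3 members, where 27.1% of all genes were called, and clone 8 called 1, Spry4, where 9.65% were. The fall from 4h to rev was called for 6 members in clone 4 (24.6% of all genes) and 4 in clone 8 (6.42%). Rev against 2h gave 3 members in clone 4 (3.31%) and 3 in clone 8 (3.49%). Rev against 0h gave 1 in each clone: Spred1 was higher in clone 4 (16.8% of all genes called) and Spred2 was lower in clone 8 by -0.36 (SE 0.116, edgeR adjusted p 0.0496, 9.90% called). The numbers called in the clones were not compared by a test.

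Levels were also compared between the clones within each group, clone 8 against clone 4. At 0h Spred1 was 5.99-fold higher in clone 8 (log2 2.58, SE 0.259, edgeR adjusted p 1.08e-08), the 1 member called where 11.7% of all genes were. At 2h the clones differed in 3 members, where 30.4% of all genes differed: Spry2 at -0.80 and Spry4 at -0.69 were lower in clone 8, and Spred1 at 0.39 was higher (edgeR adjusted p 7.76e-06, 4.08e-06 and 0.0384). Scaled by library totals, which moved the median of all genes by 0.525, the Spry2 and Spry4 calls were lost, at -0.28 and -0.17 (edgeR adjusted p 0.404 and 0.608), and Spred1 came to 0.91. The TMM-scaled Spred1 value rests on single libraries, since it was 0.14 without 2h clone 4 library 1 (edgeR adjusted p 0.583) and 0.68 without 2h clone 4 library 2 (edgeR adjusted p 0.00339). It was also lost without 2h clone 8 library 1 or library 2 (edgeR adjusted p 0.0951 and 0.133), and with DESeq2 (adjusted p 0.121). At 4h, where 24.2% of all genes differed, 4 members were lower in clone 8: Spry4 by a log2 value of -2.06, Spred3 by -1.28, Spry2 by -0.91 and Spred1 by -0.88 (edgeR adjusted p 9.35e-16, 0.00173, 2.18e-06 and 1.64e-05). Without 4h clone 4 library 1 the Spred3 value was -0.93 (edgeR adjusted p 0.185). Library totals moved the median of all genes by 0.262 here and ended the calls of Spry2, at -0.64, and Spred1, at -0.61 (edgeR adjusted p 0.0953 and 0.121). In rev edgeR and DESeq2 called 0 members, though edgeR called 24.5% of all genes, and 0 members had an unadjusted p under 0.05.

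**Figure D3:**
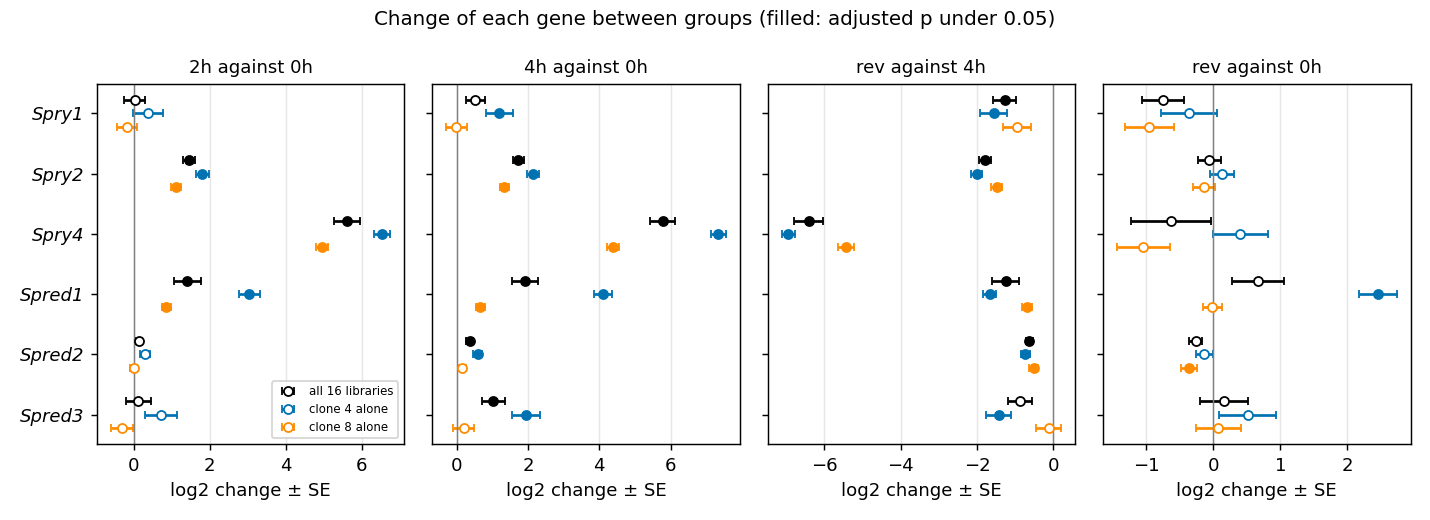
Log2 change of each gene with its standard error in 4 comparisons, each panel with its own axis, from the fit of all 16 libraries (black) and of clone 4 (blue) and clone 8 (orange) alone; filled points passed an adjusted p of 0.05. The blue points lie to the right of the orange ones for all 6 genes at 2h and 4h, and in rev against 0h the value of Spred1 in clone 4, 2.45, stands apart.

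Per length, the make-up of the family turned over with induction and turned back. Levels between genes are given here as CPM per kb of exon (GENCODE M21). At 0h the summed level was 17.2 ± 2.61 CPM per kb (SD, n = 4), of which Spred2 made up 44.6% and Spry2 36.5%. Spred1 followed with 7.74%, Spry1 with 6.43%, Spry4 with 2.39% and Spred3 with 2.31%. The last 4 are not well separated: the library ranges were 1.98% to 13.7% for Spred1, 3.19% to 8.32% for Spry1, 1.37% to 3.59% for Spry4 and 1.88% to 2.63% for Spred3. Spred2 and Spry2 also touched, at 43.5% to 46.4% and 29.3% to 46.0%.

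At 2h the sum was 53.9 ± 11.3 CPM per kb, and Spry4 led with 40.7%, ahead of Spry2 with 32.4% and Spred2 with 16.2%. These 3 ranges did not overlap, at 37.4% to 44.2%, 28.9% to 36.5% and 12.4% to 19.9%. At 4h the sum was 69.3 ± 31.7 CPM per kb, a wide spread because it came to 96.7 in clone 4 and 41.8 in clone 8. In clone 4 Spry4 held 49.7% and Spry2 29.1%, whereas in clone 8 Spry2 led with 35.9%, ahead of Spry4 with 27.5% and Spred2 with 22.6%. In rev the sum was 16.2 ± 1.88 CPM per kb, with libraries from 14.5 to 18.6 against 14.7 to 20.2 at 0h, and Spred2 at 40.0%, Spry2 at 36.7%, Spred1 at 14.3% and Spry4 at 1.98%. Spred1 thus held a larger share in rev, at 13.2% to 15.6%, than in the clone 4 libraries at 0h, at 1.98% and 3.64%, while the clone 8 libraries at 0h, at 13.7% and 11.6%, overlapped the rev range. Spred2 itself varied only from 6.40 ± 0.352 CPM per kb in rev to 9.89 ± 0.676 at 4h, so its share was lower at 2h and 4h although its own level was not.

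**Figure D4:**
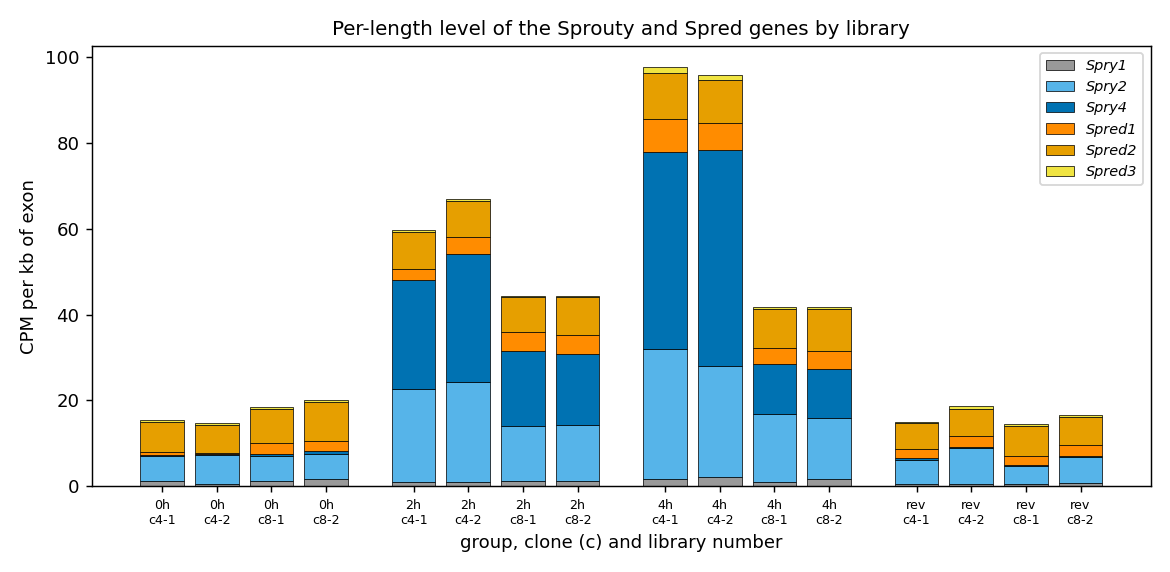
Stacked levels of the 6 detected genes per length (CPM per kb of exon) in each of 16 libraries, labelled by group, clone and library number; bar height is the family sum. Induced libraries of clone 4 reach 59.7 to 97.7 and those of clone 8 41.8 to 44.4, against 14.5 to 20.2 in the 0h and rev libraries.

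The share of the rise that was gone in rev was taken from mean log2 CPM, as the 4h to rev fall over the 0h to 4h rise, and carries no test. For Spry4 it was 0.942 in clone 4 and 1.25 in clone 8, and for Spry2 0.953 and 1.18, so both genes lost about all of their rise. Spred1 lost 0.412 of its rise in clone 4, a fall of 1.65 after a rise of 4.01 on the log2 scale. In clone 8, where Spred1 had risen by only 0.67, the share was 1.08. Spred2 ended below its start in both clones, with shares of 1.24 and 3.35 on small rises of 0.60 and 0.15. Spred3 lost 0.805 of a rise of 1.80 in clone 4 and had no rise worth dividing by in clone 8, at 0.12.

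The genes whose log2 CPM followed each member most closely over the 16 libraries were named as a description, from 8578 genes with enough counts. These libraries share their groups, clones and depth. Among the 3 nearest to Spry4 were Dusp6 (Pearson r 0.980), which encodes an ERK phosphatase, and Tiparp (0.959), an ADP-ribosyltransferase gene. Among the 3 nearest to Spry2 were Zfp281 (0.956) and Tex10 (0.933), and Spry2 and Spry4 themselves correlated at 0.954. Spred1 was followed by Adam23 (0.936), Map4k3 (0.920) and Rapgef5 (0.914), and Spred2 by Zfp459 (0.928), Klf5 (0.920) and Pcdh1 (0.886). The low genes had weaker neighbours: Capg (0.845), Farsb (0.840) and Kdm7a (0.836) for Spry1, and Nptxr (0.876), Cemip2 (0.850) and Bcl2l11 (0.836) for Spred3. Within the family, Spry1 was closest to Spred2 (0.897), and Spry4 and Spred3 correlated at 0.513. With the clone means removed, the genes nearest to Spry4 were the same 3, but none of the 3 of Spry1 remained. Only Zfp281 remained for Spry2, only Map4k3 for Spred1, only Zfp459 and Klf5 for Spred2 and only Nptxr for Spred3.

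Genes listed here as partners of Sprouty and Spred proteins gave changes of at most 0.61 on the log2 scale at 2h. Direct binding is not established for every gene listed, Shoc2 among them. Of 18 listed, 17 were tested and Cav1 had no count. At 2h against 0h, 5 of 17 rose and none fell, among them Shoc2 by 0.61, Dyrk1a by 0.43 and Ppp2ca by 0.28 on the log2 scale, where 9.49% of all genes rose and 7.48% fell. The lowest value was -0.42 for Mknk1, which was not called. At 4h against 0h edgeR called 0 of the 17, DESeq2 called 1 higher, and at an unadjusted p under 0.05 edgeR had 2 higher and 1 lower. Nf1, which encodes the Ras inactivator that Spred proteins bring to the membrane, gave 0.064 at 4h (edgeR adjusted p 0.816), from 34.5 ± 3.29 CPM at 0h to 36.4 ± 3.46 CPM (SD, n = 4). Cbl, a ubiquitin ligase gene, gave 0.21 (edgeR adjusted p 0.113) and Grb2, an adaptor gene, 0.19 (edgeR adjusted p 0.180). The extremes at 4h were Ppp2ca at 0.23 and Cblb at -0.37. From 4h to rev 1 of the 17 fell, Cbl by 0.29 (edgeR adjusted p 0.0427), and 1 rose. Of all genes, 5.10% fell and 4.50% rose there, and the list median was 0.033. The list median was 0.275 at 2h and 0.091 at 4h, beside 0.0033 and -0.0064 over all genes.

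In the cascade from receptor to ERK, 20 genes were listed and tested. At 2h against 0h Frs2, an adaptor of FGF receptors, was the only gene of the 20 called, with a rise of 0.47. Of all genes, 9.49% rose and 7.48% fell there. The extremes of the list were Fgfr3 at 1.37 and Fgfr4 at -0.75, neither called. At 4h 3 rose, Rasa2 by 0.57, Braf by 0.56 and Shc1 by 0.44, and 2 fell, Fgfr2 by 1.17 and Fgfr1 by 0.44 on the log2 scale, where 7.35% of all genes rose and 5.56% fell. For 4 of these 5 the change differed between the clones: alone, clone 4 gave 1.19 for Braf, 0.70 for Shc1, -1.80 for Fgfr2 and -0.87 for Fgfr1, and clone 8 gave -0.090, 0.14, -0.57 and -0.068, none of them called. Their clone differences were -1.29, -0.58, 1.22 and 0.79 (edgeR adjusted p 8.93e-06, 0.0381, 0.0011 and 0.000447). Mras had the highest value at 0.58 and was not called. From 4h to rev, Rasa2, Braf and Shc1 fell by 0.61, 0.60 and 0.57, and Fgfr1 rose by 0.46. Of all genes, 5.10% fell and 4.50% rose in that comparison. The clones differed there in Braf by 0.90, in Shc1 by 0.97 and in Fgfr1 by -0.61 (edgeR adjusted p 0.00079, 0.0002 and 0.0039). For Rasa2 the clone difference was -0.22 and was not called (edgeR adjusted p 0.69). That test of the clone difference called 13.2% of all genes.

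Among genes listed here as other negative feedback genes of the cascade were several phosphatases of ERK. Feedback on this cascade is not established for every gene listed, Socs3 among them. Of 15 tested, 7 rose and 2 fell at 2h, where 9.49% of all genes rose and 7.48% fell. At 4h 7 rose and 2 fell, where 7.35% of all genes rose and 5.56% fell. The list median at 4h was 0.56 against -0.0064 over all genes. It was 0.98 in clone 4 alone and 0.059 in clone 8 alone. Phlda1 rose most at 4h, by 5.0 on the log2 scale, from 0.347 ± 0.207 CPM, at most 3 counts in a library, to 13.9 ± 13.0 CPM (SD, n = 4). Dusp6 rose by 3.78 (SE 0.360, edgeR adjusted p 1.37e-06), Dusp4 by 3.69, Dusp2 by 2.58, Dusp5 by 2.42, Il17rd by 0.95 and Socs3 by 0.55. Il17rd encodes Sef, an inhibitor of FGF signalling, and stood at 20.1 ± 3.66 CPM at 0h and 38.7 ± 1.36 CPM at 4h. Lrig3 fell by 0.93 and Rasa3 by 0.66. In rev against 4h, 6 of the 15 fell, where 5.10% of all genes did, led by Dusp6 at -5.03, and Lrig1 and Socs3 rose by 0.78 and 0.54. Like Spry4, Dusp6 rose less in clone 8 at 4h, by a difference of -2.60, at 5.09 in clone 4 alone and 2.51 in clone 8 alone. Of the list genes called at 4h, Dusp4 (-4.07), Dusp5 (-2.60) and Lrig3 (0.94) also differed between the clones (edgeR adjusted p 6.81e-07, 2.11e-05 and 0.00492). That test of the clone difference called 5.72% of all genes. Some list genes not called at 4h over both clones differed as well.

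Of 19 ERK-responsive transcription factor genes, 17 were tested. At 2h 11 rose and none fell, where 9.49% of all genes rose, from Egr1 at 7.30 to Etv5 at 0.59, with Ier3 lowest at -0.24 and not called. At 4h 10 rose and none fell, where 7.35% of all genes rose. Egr3 was highest at a fitted 7.22, from at most 1 count in a 0h library, and Elk1 lowest at -0.31, not called. The list median at 4h was 1.865 in clone 4 alone and 0.735 in clone 8 alone. Against 2h, 4 of the 17 were lower at 4h and 1 was higher, where edgeR called 12.1% of all genes. Between 4h and rev 8 of the 17 fell and none rose, where 5.10% of all genes fell, with Egr1 lowest at -4.82 and Elk1 highest at 0.26, not called. Etv4, an ETS factor gene, measured 2.75 ± 1.99 CPM at 0h, 7.44 ± 3.13 at 2h and 27.5 ± 10.4 at 4h, and stood at 3.67 ± 1.95 CPM in rev (SD, n = 4 each). Its log2 change at 4h was 5.10 in clone 4 alone and 2.11 in clone 8 alone, a difference of -3.02.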

How the data were processed

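RNA-seq libraries of 16 samples were analysed, 4 in each of 4 groups taken from the sample titles. The authors deposited 1 table of raw counts per Ensembl gene, with no normalization. The submitters' processing notes name bcl2fastq 2.19.1, STAR 2.5.3a and the build mm10, and the labels' protocols describe ribosomal RNA depletion of total RNA. The counting program, annotation and strand setting are not given in the sources used here. Symbols, coordinates (1-based) and exon lengths came from GENCODE M21 on GRCm38, where 52489 of 52636 IDs matched and 147 did not, and windows before gene starts from RefSeq.

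Low genes were removed by filterByExpr, with the groups as design, at a count of 10 and a total of 15, and libraries were scaled by TMM. All 16 libraries entered one quasi-likelihood fit in edgeR 4.0.16 under R 4.3.3, with terms for group and clone. P-values were adjusted by Benjamini-Hochberg over 12742 genes, and 0.05 was the threshold for a call. A standard error is the log2 change divided by the root of F. Clone differences and clone levels came from a second fit with a mean for each of the 8 pairs of group and clone, and each clone was also fitted alone. Log2 CPM used a prior count of 2. DESeq2 1.42.0 was an alternative. Within each clone and group the 2 libraries varied beyond sampling noise in their counts, so all 16 stayed separate.

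The members and the gene lists were chosen with earlier results of these data known. All 7 members were named whatever their values; for likeness, the 3 genes with the highest Pearson r (among genes whose highest group averages 50 counts or more, leaving out predicted-gene names); for lists, the largest and smallest change, Nf1, Cbl, Grb2, Il17rd, Dusp6 and Etv4; other list genes are named because they passed the test. Some genes that these rules name are not reported here. On simulated counts of 12525 genes for 2h against 0h, 78 of 95 changes of log2 1 and 97 of 99 of log2 2 were recovered and 17 unchanged genes were called.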

Additional observations from a re-analysis of the deposited data

Results flagged for a closer look

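Of 24 combinations of member and group, 1 held a library that stood apart from its group: Spry2 at 0h in library 2 of clone 4, at 14.1 CPM against 12.4 to 12.5 CPM in the other 0h libraries. Chance gives about 1 in 20 such groups.

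The change differed between the clones in 12 tests of edgeR's interaction, each given as clone 8 minus clone 4 on the log2 scale. At 2h against 0h these were Spry2 (-0.6997), Spry4 (-1.601) and Spred1 (-2.194). At 4h against 0h they were Spry2 (-0.8094), Spry4 (-2.967), Spred1 (-3.465) and Spred3 (-1.77). At 4h against 2h they were Spry4 (-1.366) and Spred1 (-1.272), in rev against 4h Spry4 (1.521) and Spred1 (0.9945), and in rev against 0h Spred1 (-2.471). Each clone has 2 libraries in a group. The starting level of Spred1 stood beside its differences: it was 2.88 ± 1.29 CPM in clone 4 and 16.6 ± 0.901 CPM in clone 8 at 0h (SD, n = 2), and 15.2 ± 2.13 and 16 ± 2.12 CPM in rev. The part of the starting level in these differences was not tested.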

How the results depend on the processing

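The calls of Spry4 and Spry2 at 2h and 4h, and for rev against 4h or 2h, held in all 27 alternatives, as did Spred1 at 4h and Spred2 in rev against 4h. The 2h call of Spred1 was lost in 1 (without the clone covariate, edgeR adjusted p 0.0646). Over 2214 values of members' changes, 2081 kept their side of the threshold, 102 lost the call and 30 gained one. The sign turned in 53, none of them called in the main test: 52 were called in neither, and 1 was called in the alternative, Spry4 at 4h against 2h in clone 8 alone, at -0.5571. The cause of the changes below was not tested. Depth limits Spry1, Spred3 and the uninduced and rev levels of Spry4 most, with as few as 6, 9 and 3 counts in a library.

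Library totals in place of TMM moved the median of all genes by 0.103 for 2h and -0.036 for 4h (each against 0h), -0.139 for 4h against 2h, and -0.202, -0.237 and -0.341 for rev against 4h, 0h and 2h. In that order they called 446, 508, 385, 530, 449 and 157 genes (348, 328, 148, 84, 106 and 13 higher), where TMM called 2162, 1645, 1547, 1224, 1332 and 227 (1209, 936, 737, 574, 702 and 98 higher). They called 3 members at 4h against 0h, 1, 2 and 0 members for the clone differences at 2h, 4h and in rev against 4h, and 1 and 2 for the clone levels at 2h and 4h. DESeq2 called 2 members for the clone difference at 4h against 0h. Without the filter, 2 members were called at 4h against 2h, 1 in rev against 0h and 1 for the clone difference in rev against 4h, and 483 genes in rev against 2h (227 with it).

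Without the clone covariate the counts of genes were 757, 546, 266, 251, 273 and 41 in the order above. With libraries thinned to 1301790 counts outside the abundant features they were 1263, 941, 814, 783 and 126 (4h against 0h stayed within 1.5 times), and 1 and 0 members for the clone differences at 2h and in rev against 4h. Fitting only the groups compared gave 958 genes at 4h against 2h, and 831 genes and 5 members in rev against 2h. Clone 4 alone gave 3 members at 4h against 2h and 1 in rev against 0h, with 3462, 3142, 2140 and 422 genes at 4h against 2h and for rev against 4h, 0h and 2h. Clone 8 alone gave 3 members at 4h against 0h, 1 at 4h against 2h and 1 in rev against 0h, with 806 genes at 4h against 0h and 448 in rev against 2h. With an absolute log2 change of at least 1 as well, 406, 421, 302, 364, 275 and 60 genes remained.

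Leaving out 1 library at a time gave 1272 to 2430 genes at 2h against 0h, 964 to 1840 at 4h against 0h, 703 to 1762 at 4h against 2h, 642 to 1493 in rev against 4h, 686 to 1567 in rev against 0h and 80 to 312 in rev against 2h. Members called ran from 3 to 3, 3 to 5, 0 to 2, 4 to 6, 0 to 2 and 2 to 3 in the same order. For clone differences they ran from 1 to 3, 2 to 4, 2 to 2, 0 to 3 and 1 to 1 (rev against 0h last), and for clone levels from 1 to 2 at 0h, 2 to 3 at 2h, 3 to 4 at 4h and 0 to 1 in rev. Spred3 at 4h against 0h lost its call without either 0h or 4h library of clone 4, library 1 of clone 8 at 0h, library 1 of either clone at 2h, or either clone 8 rev library (0.69 to 1.12). Spred2 in rev against 2h lost it without any rev library, either clone 4 library or clone 8 library 2 of 2h (-0.38 to -0.41). The clone difference of Spry2 at 2h lost it without any 0h library, clone 4 library 2 or either clone 8 library of 2h, or either clone 8 library of 4h. That of Spry2 at 4h lost it without any 0h library, 4h clone 4 library 1 or 4h clone 8 library 2, and the same 6 libraries ended that of Spred3.

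The numbers 1 and 2 recur in each clone and group but did not pair the libraries: of 12 correlations of deviations within a clone, 1 was over 0.1 (range -0.133 to 0.119). With the replicate block, counts over all genes were 1834, 1325, 1108, 912, 1027 and 158 and over members 3, 4, 0, 4, 0 and 2. Spred3 at 4h against 0h (edgeR adjusted p 0.0657), Spred1 in rev against 4h (0.0566), Spred2 in rev against 2h (0.0562), the clone difference of Spry2 at 2h (0.0592) and the clone level of Spred1 at 2h (0.0827) lost their calls. The block changed no other call of a member. The clone difference in rev against 0h and the clone levels at 2h, 4h and rev were added after the values were seen.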
